A study of Homo sapiens with 12 samples.

Results

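The unfolded protein and amino acid stress response was followed through 37 genes, of 58174 in the deposited tables, that were taken from a fixed list of names with earlier results of these data known. They fall into an endoplasmic reticulum (ER) arm of 22 genes (chaperones, folding enzymes, ER-associated degradation, and the stress sensors with XBP1) and an ATF4-linked arm of 15 genes (regulators, enzymes of serine, one-carbon and asparagine synthesis, and amino acid transporters). All 37 symbols were found by Ensembl identifier in both tables. The cells were U87 (U-87 MG) and U118 (U-118 MG), a pair of established human glioblastoma lines. According to the study's methods, cells without the surface markers CD133 and CD15 were sorted and grown with serum and BMP2, a differentiation factor, in every group. Aggregation cells came from cultures given temozolomide (TMZ), an alkylating drug, at 50 μM, and control cells did not receive it. The series' design text speaks of continuous induction, while the study's text places the outgrowth of aggregates in the weeks after treatment, so whether TMZ was present at harvest is not clear. In the sample labels these are sensitive (control) and resistant (aggregation), with neither dose nor time. Each of the 4 groups (U87 control, U87 aggregation, U118 control, U118 aggregation) had 3 mRNA libraries, 12 in all. The study describes aggregates as outgrowths from few surviving cells, which limits how far a group stands for its line. The sources do not say whether the 3 libraries of a group came from separate cultures, and the p-values then measure the spread between libraries only.

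When unfolded proteins accumulate in the ER, 3 membrane sensors respond. ATF6 and IRE1 (encoded by ERN1, which splices XBP1 mRNA) raise chaperone and degradation genes through elements in their promoters, and PERK (encoded by EIF2AK3) slows translation by phosphorylating eIF2. Amino acid shortage reaches the same eIF2 step through another kinase, and both routes favour translation of ATF4, a transcription factor for genes of amino acid synthesis and uptake. ATF4 protein is set largely by translation and the activity of ATF6, IRE1 and PERK by processing or phosphorylation, none of which mRNA levels measure. In glioblastoma cells the chaperone BiP (encoded by HSPA5) is well known for its high level and for its link to survival under drug treatment.

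The promoters of 7 members are shown because they hold short elements known for ER stress or for ATF4, and the values below are read against them. The arms themselves were set by gene name, and many members hold none of these elements. Sequences are from RefSeq on GRCh38.p14, from 250 bases before to 50 bases after the annotated start, written 5′ to 3′ on the strand of the gene, with matched elements in capitals. Windows were found for 33 of the 37 members. PDIA3, PSPH, SHMT2 and SLC7A11 had none in the table. The elements searched on both strands were the ER stress element (ERSE), its variant ERSE-II, the unfolded protein response element (UPRE, TGACGTGG) and the C/EBP-ATF element (TGATGNAA), the last of which ATF4 is known to bind. The windows printed are HSPA5 (chr9:125241294-125241593, minus strand), HSP90B1 (chr12:103930160-103930459, plus strand), XBP1 (chr22:28800520-28800819, minus strand), HYOU1 (chr11:119057156-119057455, minus strand), HERPUD1 (chr16:56931892-56932191, plus strand), ASNS (chr7:97872359-97872658, minus strand) and CHAC1 (chr15:40953221-40953520, plus strand).
HSPA5: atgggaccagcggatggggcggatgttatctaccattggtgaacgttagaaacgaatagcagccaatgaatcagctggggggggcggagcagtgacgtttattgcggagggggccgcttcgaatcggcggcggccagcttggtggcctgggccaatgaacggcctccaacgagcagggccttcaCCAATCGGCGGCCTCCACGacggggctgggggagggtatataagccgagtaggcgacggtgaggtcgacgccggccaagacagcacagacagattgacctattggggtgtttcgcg
HSP90B1: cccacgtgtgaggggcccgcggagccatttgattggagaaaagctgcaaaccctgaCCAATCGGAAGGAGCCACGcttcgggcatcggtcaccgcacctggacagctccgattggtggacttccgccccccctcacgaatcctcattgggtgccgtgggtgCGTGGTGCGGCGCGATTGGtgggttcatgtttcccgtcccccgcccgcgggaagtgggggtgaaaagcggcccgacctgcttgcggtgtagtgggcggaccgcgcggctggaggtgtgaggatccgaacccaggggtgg
XBP1: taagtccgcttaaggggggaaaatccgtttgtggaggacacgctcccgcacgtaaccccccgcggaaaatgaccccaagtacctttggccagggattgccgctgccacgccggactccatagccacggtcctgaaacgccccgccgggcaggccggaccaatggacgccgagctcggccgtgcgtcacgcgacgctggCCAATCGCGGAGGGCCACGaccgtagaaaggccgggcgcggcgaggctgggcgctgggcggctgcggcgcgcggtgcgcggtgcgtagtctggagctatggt
HYOU1: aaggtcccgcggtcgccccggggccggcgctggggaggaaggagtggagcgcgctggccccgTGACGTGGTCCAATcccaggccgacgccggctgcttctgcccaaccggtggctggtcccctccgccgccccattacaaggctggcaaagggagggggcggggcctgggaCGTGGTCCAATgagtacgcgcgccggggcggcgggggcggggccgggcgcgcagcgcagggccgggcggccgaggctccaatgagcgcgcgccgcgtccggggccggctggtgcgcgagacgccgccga
HERPUD1: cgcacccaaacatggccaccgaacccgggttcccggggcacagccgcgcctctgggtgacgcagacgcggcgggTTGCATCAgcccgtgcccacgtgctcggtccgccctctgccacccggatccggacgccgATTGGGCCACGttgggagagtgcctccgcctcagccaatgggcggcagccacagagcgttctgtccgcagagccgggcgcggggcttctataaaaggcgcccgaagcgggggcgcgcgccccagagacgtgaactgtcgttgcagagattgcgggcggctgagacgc
ASNS: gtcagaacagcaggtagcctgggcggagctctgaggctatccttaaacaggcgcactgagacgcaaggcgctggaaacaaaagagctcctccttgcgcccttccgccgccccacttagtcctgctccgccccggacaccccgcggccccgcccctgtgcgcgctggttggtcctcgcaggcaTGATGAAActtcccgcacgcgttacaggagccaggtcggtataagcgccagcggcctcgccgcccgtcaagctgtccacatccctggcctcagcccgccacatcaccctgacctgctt
CHAC1: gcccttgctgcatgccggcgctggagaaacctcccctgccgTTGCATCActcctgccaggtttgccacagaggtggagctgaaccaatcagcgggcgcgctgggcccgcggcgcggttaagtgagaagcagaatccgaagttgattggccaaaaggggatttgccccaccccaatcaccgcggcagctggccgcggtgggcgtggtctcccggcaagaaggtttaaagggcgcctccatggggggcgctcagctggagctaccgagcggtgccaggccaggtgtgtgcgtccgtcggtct
ERSE stood in 7 of the 21 ER-arm genes with a window (HSPA5, HSP90B1, CALR, CANX, PDIA6, CRELD2 and XBP1), in 0 of the 12 ATF4-linked genes, and in 0.0769% of all 35116 windows. HSP90B1 carried it on both strands. ERSE-II stood in HYOU1, SDF2L1 and HERPUD1 and in 0.0541% of all windows. UPRE stood in HYOU1 (0.729% of all windows), where it overlaps the first of the ERSE-II copies. The C/EBP-ATF element stood in CHAC1, ASNS and SLC3A2, 3 of the 12 ATF4-linked genes, and in HERPUD1 of the ER arm (3.62% of all windows). These elements were first described in promoters of several of the same genes, so the matches describe the members and test nothing.

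For each cell line the authors deposited 1 table of TPM values, each the share of a library's transcripts that a gene takes after scaling for transcript length, so levels can be compared between genes. TPM keeps no read counts and the depth of each library is unknown. The mitochondrial genome supplied 12.9% to 16.9% of TPM in control and 22.2% to 23.7% in aggregation libraries of U87, and 7.42% to 19.7% and 13.2% to 29.9% in those of U118. Over all genes tested the median log2 fold change was −0.245 in U87 and −0.522 in U118, and scaling the libraries by their median ratio brought it to −0.0135 and −0.0232. Each fold change below should be read against these medians. The U118 aggregation libraries went against their label in their whole profile. Across genes reaching 1 TPM in 3 or more libraries, Spearman's rho between U118 aggregation and U118 control libraries was 0.808 to 0.839, against 0.895 to 0.909 with U87 control and 0.907 to 0.913 with U87 aggregation libraries. All 3 libraries of the group were alike in this, so no U118 comparison can be made without them. Aggregation replicate 1 of U118 stood apart from the other two, with the highest of the 3 values for 26 of 37 members and 74.8% of all genes tested, and U118 results are also given without it. Of the 8 glial and glioma markers, VIM (4425 to 7149 TPM) and CD44 (311 to 868 TPM) were high in every library, GFAP stayed under 1 TPM, and AQP4 was listed at 0 throughout. NES was at 5.76 to 24.1 TPM, OLIG2 at 0 to 4.45 TPM and S100B at 0 to 0.28 TPM. SOX2 was listed at 0 in U87, at 0.33 to 0.55 TPM in U118 control and at 0.025 to 0.059 TPM in U118 aggregation libraries. The 6 fibroblast markers summed to 44.7 to 48.2 TPM in U87 control and 108 to 126 TPM in U87 aggregation libraries, and to 678 to 939 TPM in U118 control and 170 to 349 TPM in U118 aggregation libraries. DCN, a defining fibroblast gene, was at 32.9 to 39.6 TPM in U118 control and 0.22 to 1.06 TPM in U118 aggregation libraries. The leukocyte markers summed to 171 to 379 TPM, nearly all of it CD68 (170 to 379 TPM), a lysosomal protein known best from macrophages, while CD14 stayed at or under 0.86 TPM and PTPRC and CD3E below 0.1 TPM in all libraries. Endothelial markers summed to 0.47 to 3.71 TPM, epithelial markers to 1.60 to 19.6 TPM and neuronal markers to 50.9 to 101.8 TPM. Their part in the results below was not tested. In bulk libraries, fewer cells of a kind and less RNA per cell cannot be told apart.

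Within each line limma was run on log2(TPM + 1) values of aggregation against control libraries. A gene counts as called where its adjusted p (Benjamini-Hochberg over all genes tested) is below 0.05 and its log2 fold change reaches 1 in size. In U87, HSPA5 rose and was the 1 ER-arm gene called, of 22 tested, with none called lower. Across all 13845 genes tested in U87, 3.03% were called higher and 7.79% lower. The median log2 fold change of the ER arm was −0.002 in U87, above the −0.245 of all genes, and became 0.26 with median-ratio scaling against −0.0135 of all genes. Summed over the arm, control libraries held 2991 to 3370 TPM and aggregation libraries 2996 to 3271 TPM, which overlap.

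HSPA5 (ENSG00000044574, chr9:125234853-125241330, minus strand) encodes BiP, the main ATP-driven chaperone of the ER and the protein that holds the stress sensors inactive. Its level was 161, 195 and 190 TPM in the U87 control libraries and 370, 346 and 388 TPM in the aggregation libraries. Every aggregation library lay above every control library. This is a log2 fold change of 1.02 ± 0.09 (SE, n = 3 against 3, adjusted p = 0.000335, limma), a ratio of means of 2.02. This call sat at the size threshold. Without control replicate 1 it was 0.93 and without aggregation replicate 3 it was 0.98, both under the threshold, while median-ratio scaling gave 1.28.

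Among the other chaperones and folding enzymes of U87, no gene was called. CALR (calreticulin, a lectin chaperone that also binds calcium) was the most abundant member, at 1096 to 1106 TPM in control and 1042 to 1158 TPM in aggregation libraries. PDIA4, a disulfide isomerase, was as steady, at 261 to 269 TPM and 256 to 274 TPM. A further 5 genes passed on adjusted p without reaching the size threshold, a rule without size by which 9.43% of all genes were higher and 29.7% lower. These were MANF, a secreted ER stress protein (log2 fold change −0.60, adjusted p = 0.00381), HYOU1, an ER chaperone of the Hsp110 family (−0.66, 0.0174), DNAJB11, a co-chaperone of BiP (−0.52, 0.0452), PDIA6, a disulfide isomerase (−0.21, 0.0401), and SDF2L1, a partner of DNAJB11 (0.28, 0.0374). With median-ratio scaling the 4 negative ones missed the threshold on adjusted p, and PDIA6 turned to 0.05, while SDF2L1 reached 0.54 (adjusted p = 0.0159). HSP90B1 (GRP94, the ER form of Hsp90), CANX (calnexin), PDIA3, DNAJB9, DNAJC3 and CRELD2, all of them folding factors, lay between −0.33 (HSP90B1) and 0.59 (DNAJB9), none past the adjusted p threshold. HSP90B1 was at 410 TPM in control replicate 2 against 178 and 224 TPM in the other controls, and its sign turned to 0.02 without that library.

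HERPUD1, SEL1L, SYVN1 and EDEM1 serve ER-associated degradation, in which misfolded proteins are recognised, moved to the cytosol and ubiquitinated by SYVN1. Their log2 fold changes in U87 were 0.28, 0.26, 0.15 and −0.18, and none passed the adjusted p threshold. Of the sensor genes, ERN1 gave 0.15, ATF6 0.03 and EIF2AK3 −0.02, each with a standard error of 0.17 to 0.22.

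XBP1, whose spliced product is the transcription factor of the IRE1 route, was at 31.4, 11.6 and 18.4 TPM in the U87 control libraries. The aggregation libraries held 32.2, 32.0 and 35.4 TPM. The groups did not overlap, but control replicate 1 lay just under the lowest aggregation library. The log2 fold change was 0.78 ± 0.31 (SE, adjusted p = 0.0917), which is not a call. It was a call with median-ratio scaling (1.03, adjusted p = 0.0447) and without control replicate 1 (1.13). TPM per gene does not separate spliced from unspliced XBP1.

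**Figure D1:**
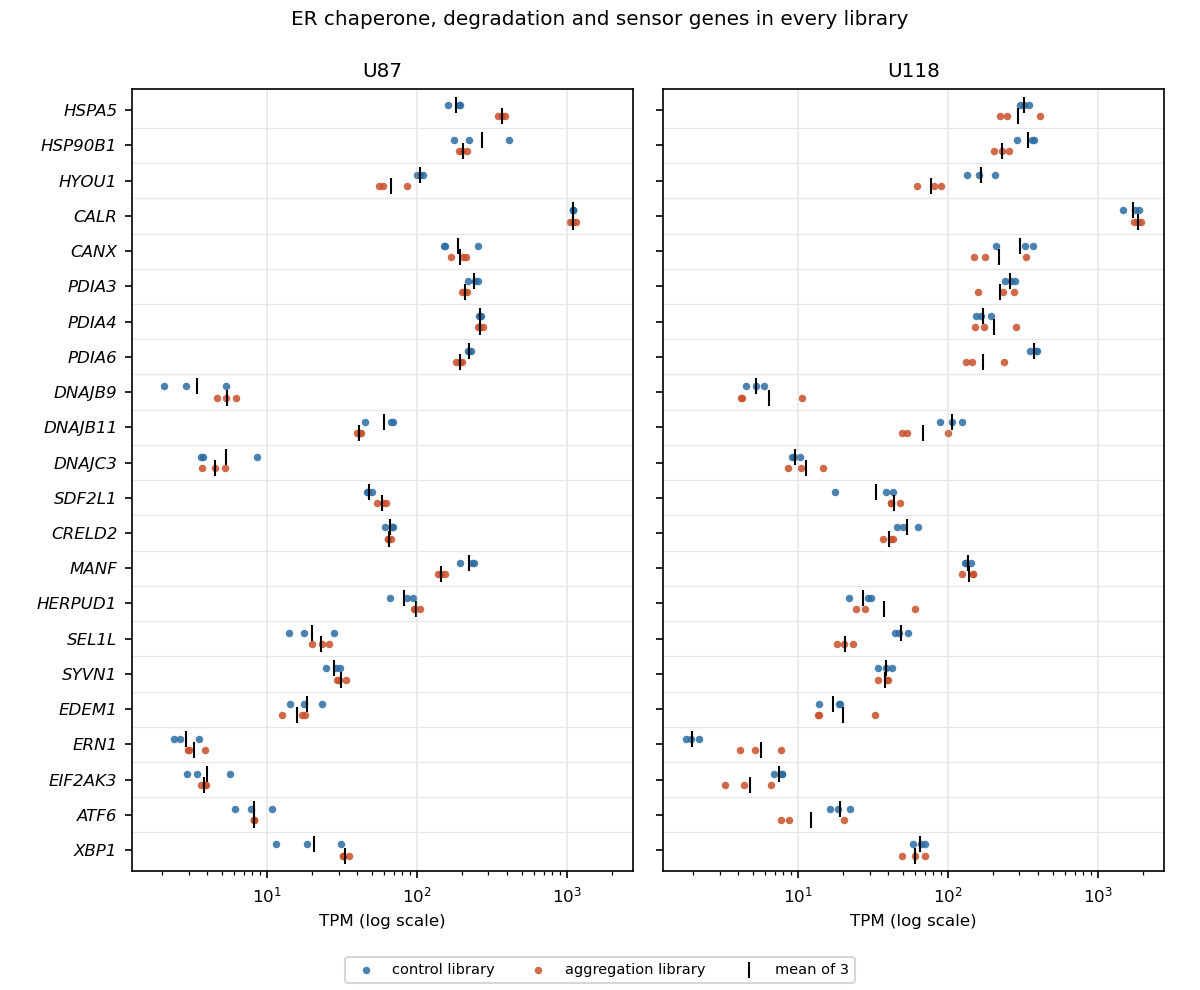
Level of each of the 22 ER-arm genes in TPM on a log axis, with 1 point per library for control and aggregation cells of U87 (left) and U118 (right) and a bar at the mean of 3. Among the genes that separate are HSPA5 in U87 (161 to 195 against 346 to 388 TPM) and ERN1 and SEL1L in U118. HYOU1 and PDIA6 lie lower in the aggregation libraries of both lines.

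The ATF4-linked arm moved in both directions in U87. DDIT4 was called higher and TRIB3 lower, of 14 genes tested, beside the 3.03% and 7.79% of all genes. ATF4, CHAC1 and SLC3A2 were higher and PHGDH lower on adjusted p alone. The arm's median log2 fold change was 0.20 against −0.245 of all genes, and 0.45 against −0.0135 with median-ratio scaling. Its sum was 1035 to 1095 TPM in control and 1289 to 1297 TPM in aggregation libraries, groups that did not overlap. Abundant genes weigh most in such a sum. ATF4 (means of 139 and 247 TPM) and SLC3A2 (191 and 290 TPM) rose by the most TPM.

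ATF4 (ENSG00000128272, chr22:39519695-39522685), the transcription factor of this arm, was at 140, 125 and 151 TPM in U87 control and 236, 271 and 233 TPM in U87 aggregation libraries. All aggregation libraries were above all control libraries. The log2 fold change was 0.82 ± 0.10 (SE, adjusted p = 0.000925), under the size threshold, and 1.09 with median-ratio scaling, where it was called.

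DDIT4 (ENSG00000168209, chr10:72273920-72276036), known also as REDD1, restrains the growth kinase mTORC1 and responds to hypoxia, energy and ER stress and DNA damage. In U87 it was at 18.1, 16.7 and 18.8 TPM in control and 51.9, 49.5 and 50.2 TPM in aggregation libraries. The libraries of each group lay within a few TPM of each other and the groups were far apart. DDIT4 rose by a log2 fold change of 1.45 ± 0.09 (SE, adjusted p = 0.000107), a ratio of means of 2.83.

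TRIB3 (ENSG00000101255, chr20:362835-397559), a pseudokinase that ATF4 and DDIT3 are known to induce and that dampens their action, went the other way. It was at 16.1, 14.1 and 15.4 TPM in U87 control and 0.64, 1.04 and 0.83 TPM in U87 aggregation libraries. Control and aggregation values were far apart. Its log2 fold change was −3.15 ± 0.15 (SE, adjusted p = 5.66e-05), the largest of any member in either line, and the control mean was 18.2 times the aggregation mean. The scale log2(TPM + 1) understates a change to so low a level.

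DDIT3 (CHOP), the transcription factor linked to cell death under prolonged ER stress, was at 53.8, 81.7 and 78.9 TPM in U87 control and 87.002, 84.2 and 117.8 TPM in U87 aggregation libraries. The groups did not overlap, though the closest libraries differed by little (81.7 and 84.2 TPM), and the log2 fold change of 0.43 ± 0.20 (SE, adjusted p = 0.126) is not a call. CHAC1, which degrades glutathione, was low throughout, at 1.03 to 2.04 TPM in control and 2.74 to 3.14 TPM in aggregation libraries (log2 fold change 0.73, adjusted p = 0.0205). On a pseudocount of 0.1 in place of 1 it was called, at 1.06. CEBPB, a transcription factor that pairs with ATF4, gave 0.19 (adjusted p = 0.0581).

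The enzyme genes did not share a direction in U87. PHGDH, which opens serine synthesis from a glycolytic intermediate, was at 84.3 to 94.1 TPM in control and 41.7 to 47.0 TPM in aggregation libraries, a log2 fold change of −0.98 ± 0.09 (SE, adjusted p = 0.000282) just short of the size threshold. It crossed it without control replicate 3 (−1.02) or aggregation replicate 3 (−1.02), and was −0.72 with median-ratio scaling. PSAT1 and PSPH, the next enzymes of the same route, gave −0.28 and 0.20. ASNS, asparagine synthetase, was at 17.3, 14.4 and 13.1 TPM in control and 19.1, 16.8 and 16.9 TPM in aggregation libraries. These ASNS groups overlapped and the log2 fold change was 0.23 (adjusted p = 0.232). SHMT2 and MTHFD2, the mitochondrial one-carbon enzymes, gave 0.02 and −0.10.

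SLC3A2 and SLC7A5 encode the heavy and light chains of the large neutral amino acid transporter, and SLC7A11 pairs with SLC3A2 to import cystine. SLC3A2 was at 181 to 196 TPM in U87 control and 267 to 308 TPM in U87 aggregation libraries (log2 fold change 0.60 ± 0.08, SE, adjusted p = 0.00128). SLC7A5 was low in U87, at 5.08 to 5.55 TPM and 4.29 to 4.67 TPM (−0.20, adjusted p = 0.274). SLC7A11 lay at 0.17 to 0.56 TPM in all 6 libraries and was not tested there.

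**Figure D2:**
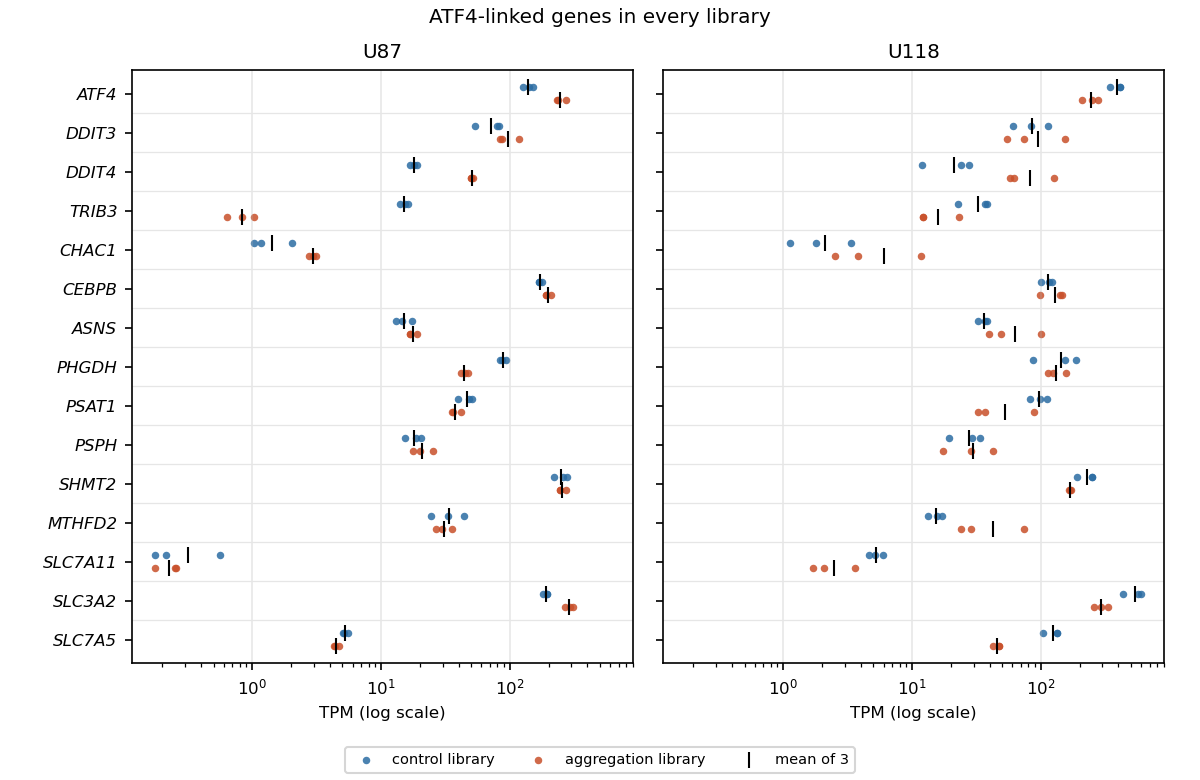
Level of each of the 15 ATF4-linked genes in TPM on a log axis, with 1 point per library for control and aggregation cells of U87 (left) and U118 (right) and a bar at the mean of 3. TRIB3 drops to 0.64 to 1.04 TPM in U87, DDIT4 is higher in aggregation libraries of both lines, and SLC7A5 is lower in U118.

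The genes around TRIB3 on chromosome 20 were looked at after its values were seen. Within 250 kb, 8 other genes were tested in U87, and all 8 had negative fold changes, from −0.62 (TBC1D20) to −1.47 (NRSN2-AS1). Of these, ZCCHC3, NRSN2-AS1, SOX12, RBCK1 and SRXN1 were called lower. With median-ratio scaling the 8 lay between −0.37 and −1.27. Within 1 Mb the median of 14 neighbours was −1.10, and all 14 lay below the median of all genes. The first 5 Mb of the chromosome had a median of −0.987 over 44 genes. Medians of its other 5 Mb stretches ran from −0.929 to −0.346, all below the median of all genes as well. TRIB3 itself, at −3.15, lay well below every neighbour within 250 kb. In U118, 19 neighbours of TRIB3 within 1 Mb had a median of −1.77, and 18 of them lay below the median of all genes in U118.

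**Figure D3:**
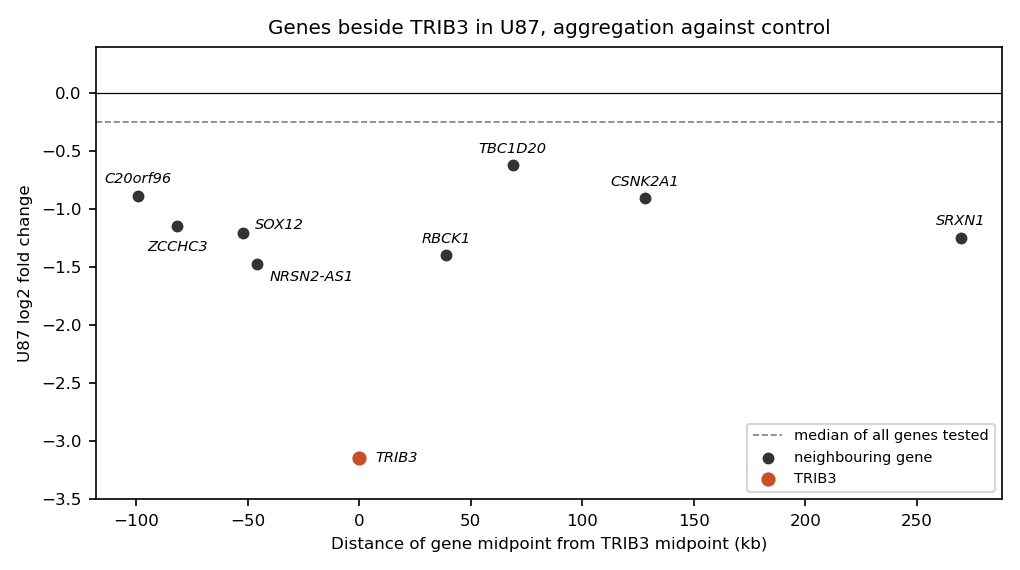
Log2 fold change in U87 (aggregation against control, log2(TPM + 1)) of TRIB3 and of the 8 tested genes within 250 kb, by distance of each gene's midpoint from the midpoint of TRIB3 in kb. All 9 points lie below the dashed median of all genes (−0.245), and TRIB3 (−3.15) lies lowest.

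The same view of neighbours within 1 Mb was taken for the other members. For MANF in U87 (−0.60), all 25 neighbours lay below the median of all genes, with a median of −1.07. For HYOU1 in U87 (−0.66) all 28 did, with a median of −0.894. DNAJB11 in U87 (−0.52) had neighbours at −0.83 (11 of 14 below) and PDIA6 (−0.21) at −0.66 (11 of 13). Among members with positive changes in U87, neighbours had medians of −0.14 for HSPA5, −0.09 for ATF4 and −0.37 for DDIT4. Of these neighbours 6 of 14, 9 of 29 and 12 of 19 lay below the median of all genes. Neighbour medians were −0.63 for CHAC1 (30 of 38 below), −0.54 for DNAJB9 (6 of 9) and −0.78 for PSPH (9 of 9). PHGDH, with a negative change, had neighbours at −0.06. Whether these regions bear on the values of the members was not tested.

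In U118, 4 ER-arm genes were called, ERN1 higher and HYOU1, PDIA6 and SEL1L lower, of 22 tested. Across all 15527 genes tested in U118, 8.64% were called higher and 26.6% lower. The arm's median log2 fold change was −0.16 against −0.522 of all genes, and it turned to 0.40 with median-ratio scaling, where SDF2L1 and ERN1 were called higher and none lower. On that scale 15.2% of all genes were called higher and 12.9% lower. Without aggregation replicate 1, none was called higher and 5 were called lower (HYOU1, PDIA6, DNAJB11, SEL1L and ATF6), beside 5.23% and 38.4% of all genes. The sum over the arm was 3832 to 4460 TPM in control and 3286 to 4381 TPM in aggregation libraries, which overlap.

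ERN1 (ENSG00000178607, chr17:64039142-64130819), the gene of the sensor IRE1, was at 1.94, 2.18 and 1.79 TPM in U118 control and 7.72, 4.11 and 5.18 TPM in U118 aggregation libraries. The groups did not overlap, and the highest value was in aggregation replicate 1. ERN1 had a log2 fold change of 1.13 ± 0.25 (SE, adjusted p = 0.00552), with a ratio of means of 2.88. With median-ratio scaling it was 1.54, and without aggregation replicate 1 it was 0.92 (adjusted p = 0.00241), under the size threshold.

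SEL1L (ENSG00000071537, chr14:81471549-81533861), the scaffold that links SYVN1 to its substrates, was at 44.6, 47.1 and 54.5 TPM in U118 control and 23.1, 18.3 and 20.1 TPM in U118 aggregation libraries. All aggregation libraries lay below all controls, by a log2 fold change of −1.21 ± 0.21 (SE, adjusted p = 0.00144). PDIA6 (ENSG00000143870, chr2:10783391-10837977) was at 393, 389 and 350 TPM in control and 236, 131 and 145 TPM in aggregation libraries, also without overlap (−1.19 ± 0.26, SE, adjusted p = 0.00465). HYOU1 (ENSG00000149428, chr11:119044189-119057202) was at 134, 161 and 207 TPM in control and 80.8, 62.6 and 89.2 TPM in aggregation libraries (−1.09 ± 0.24, SE, adjusted p = 0.00506). These 3 calls rested on the scaling. With median-ratio scaling SEL1L was −0.67, PDIA6 −0.63 and HYOU1 −0.54, none of them a call. HYOU1 also lost its call without aggregation replicate 2 (−0.95) or control replicate 3 (−0.93). Their neighbours within 1 Mb had medians of −1.12 (SEL1L, 5 genes), −1.09 (PDIA6, 17 genes) and −1.28 (HYOU1, 34 genes).

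HSPA5, called higher in U87, was at 323, 348 and 301 TPM in U118 control and 411, 221 and 247 TPM in U118 aggregation libraries. The aggregation libraries fell on both sides of the controls. The log2 fold change was −0.20 ± 0.26 (SE, adjusted p = 0.551), with a sign that turned to 0.36 with median-ratio scaling and a value of −0.47 without aggregation replicate 1. XBP1 was at 58.4, 69.9 and 65.9 TPM in control and 60.6, 70.3 and 49.1 TPM in aggregation libraries, so the groups overlapped (−0.12, adjusted p = 0.662). Its level in U118 controls was above that of any U87 library, as the values of the separate tables stand.

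The other folding factors of U118 lay between −0.70 (DNAJB11) and 0.49 (SDF2L1), none called. CALR was again the most abundant, at 1466 to 1880 TPM in control and 1750 to 1946 TPM in aggregation libraries. HSP90B1 passed on adjusted p alone, at 291 to 372 TPM in control and 202 to 257 TPM in aggregation libraries (−0.57, adjusted p = 0.0458), and was −0.01 with median-ratio scaling. Several genes were raised in aggregation replicate 1 and not in the other two, among them HERPUD1 (60.4 TPM against 24.4 and 28.0 TPM), DNAJB9 (10.7 TPM against 4.19 and 4.26 TPM) and EDEM1 (32.5 TPM against 13.7 and 13.9 TPM). The sensor genes EIF2AK3 and ATF6 gave −0.60 and −0.72 in the full comparison, neither past the adjusted p threshold.

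The values of the ER arm were set beside the promoter elements, with no test. Of the 7 genes with ERSE, 3 had positive fold changes in U87 and 1 in U118. Of the 14 whose window held no ERSE (HYOU1, SDF2L1 and HERPUD1 with ERSE-II among them), 8 did in each line. With median-ratio scaling these counts turned to 6 of 7 and 11 of 14 in U87 and to 5 of 7 and 9 of 14 in U118. The ERSE genes ranged from −0.33 (HSP90B1) to 1.02 (HSPA5) in U87 and from −1.19 (PDIA6) to 0.12 (CALR) in U118. Of the genes with ERSE-II, SDF2L1 gave 0.28 and 0.49, HERPUD1 0.28 and 0.35, and HYOU1 −0.66 and −1.09 in U87 and U118.

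Within the ATF4-linked arm of U118, DDIT4 and MTHFD2 were called higher and TRIB3, PSAT1 and SLC7A5 lower, of 15 tested, beside the 8.64% and 26.6% of all genes. The median log2 fold change was −0.06 against −0.522 of all genes. It turned to 0.50 with median-ratio scaling, where DDIT4, ASNS and MTHFD2 were called higher and none lower, beside 15.2% and 12.9% of all genes. Without aggregation replicate 1, DDIT4 was called higher and PSAT1, SLC7A11 and SLC7A5 lower, beside 5.23% and 38.4% of all genes. The sum over the arm was 1507 to 2037 TPM in control and 1234 to 1678 TPM in aggregation libraries, groups that overlapped.

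DDIT4 was at 27.6, 23.8 and 11.9 TPM in U118 control and 127, 57.3 and 61.9 TPM in U118 aggregation libraries. The groups did not overlap, and replicate 1 again held the highest aggregation value. Its log2 fold change was 1.90 ± 0.39 (SE, adjusted p = 0.00347), 2.44 with median-ratio scaling, and 1.53 (adjusted p = 0.0043) without aggregation replicate 1. DDIT4 was thus a call in both lines and under each of these settings.

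TRIB3 was at 38.1, 36.7 and 22.8 TPM in U118 control and 12.2, 23.0 and 12.2 TPM in U118 aggregation libraries. The groups overlapped, since aggregation replicate 2 lay above control replicate 3. The log2 fold change of −1.02 ± 0.31 (SE, adjusted p = 0.0235) was −0.48 with median-ratio scaling and −0.88 without aggregation replicate 1, neither of them a call. Leaving out aggregation replicate 3 (−0.88), control replicate 1 (−0.89) or control replicate 2 (−0.92) also took it under the threshold.

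ATF4 was lower in the U118 aggregation libraries, at 277, 207 and 250 TPM, than in the controls, at 409, 412 and 342 TPM. The groups did not overlap, and the log2 fold change of −0.67 ± 0.21 (SE, adjusted p = 0.0264) was under the size threshold. It was −0.11 (adjusted p = 0.683) with median-ratio scaling. DDIT3 was at 113, 83.1 and 60.4 TPM in control and 155, 54.2 and 74.4 TPM in aggregation libraries, with overlap (0.05, adjusted p = 0.926). Its sign turned to −0.38 without aggregation replicate 1. CHAC1 was at 1.12 to 3.38 TPM in control and 2.51 to 11.8 TPM in aggregation libraries, where replicate 2 was the high one (1.02, adjusted p = 0.0953). CEBPB gave 0.15.

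MTHFD2 (ENSG00000065911, chr2:74198562-74217565), the NAD-dependent mitochondrial folate enzyme, was at 15.7, 17.0 and 13.3 TPM in U118 control and 74.4, 23.8 and 28.6 TPM in U118 aggregation libraries. No aggregation value lay within the control range, but replicate 1 was far above the other two. MTHFD2 gave a log2 fold change of 1.23 ± 0.39 (SE, adjusted p = 0.0268). It was 1.76 with median-ratio scaling and 0.73 (adjusted p = 0.00743) without aggregation replicate 1, which is under the size threshold. Without any 1 of the controls it missed the adjusted p threshold, at 1.14 to 1.30. ASNS had the same shape, at 36.7, 38.4 and 32.7 TPM in control and 100, 39.5 and 49.4 TPM in aggregation libraries. Its log2 fold change was 0.68 ± 0.33 (SE, adjusted p = 0.108), a call at 1.23 with median-ratio scaling and 0.29 without aggregation replicate 1.

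PSAT1 (ENSG00000135069, chr9:78297143-78330093), the aminotransferase of serine synthesis, was at 111, 98.0 and 82.3 TPM in U118 control and 88.1, 32.5 and 36.6 TPM in U118 aggregation libraries. Aggregation replicate 1 lay within the control range and the other two far below it. The log2 fold change was −1.02 ± 0.36 (SE, adjusted p = 0.0399), −0.46 with median-ratio scaling and −1.46 (adjusted p = 0.000345) without aggregation replicate 1. Leaving out any other library of U118 ended the call, at −0.75 to −1.13. PHGDH, lower in U87, was at 86.2 to 186 TPM in U118 control and 113 to 155 TPM in U118 aggregation libraries (−0.06, adjusted p = 0.88), PSPH gave 0.04 and SHMT2 −0.43 (adjusted p = 0.102).

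All 3 transporter genes were lower in U118 on adjusted p, as were 39.1% of all genes (12.2% were higher), and SLC7A5 was the one called. SLC7A5 (ENSG00000103257, chr16:87830023-87869488), the light chain that carries leucine and other large neutral amino acids, was at 134, 134 and 103 TPM in U118 control and 42.5, 47.3 and 47.7 TPM in U118 aggregation libraries. The groups were far apart and replicate 1 did not stand out. SLC7A5 had a log2 fold change of −1.41 ± 0.20 (SE, adjusted p = 0.000543) and −1.36 without aggregation replicate 1, while median-ratio scaling gave −0.85 (adjusted p = 0.0238), under the size threshold. SLC3A2, its heavy chain, was at 433 to 601 TPM in control and 260 to 331 TPM in aggregation libraries (−0.85, adjusted p = 0.0119), and −0.29 (adjusted p = 0.33) with median-ratio scaling. SLC7A11 was at 4.61 to 5.89 TPM in control and 1.71 to 3.58 TPM in aggregation libraries (−0.88, adjusted p = 0.0191). Without aggregation replicate 1 it was called at −1.10. Neighbours within 1 Mb in U118 had medians of −0.21 for SLC7A5 (23 genes), −0.13 for DDIT4 (19), −0.64 for ERN1 (30) and −0.53 for MTHFD2 (41). PSAT1 (−1.02) had 3 neighbours with a median of −1.21, all 3 below the median of all genes.

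The difference between the lines was tested as an interaction over all 12 libraries, with the change in U118 minus the change in U87. Of the 37 members, 1 was called above (TRIB3) and 5 below (HSPA5, SEL1L, ATF4, SLC3A2 and SLC7A5), beside 12% and 18.5% of 16382 genes. For ATF4 the difference was −1.49 ± 0.21 (SE, adjusted p = 0.000119), from a change of 0.82 in U87 to −0.67 in U118. SLC3A2, the transporter heavy chain, differed by −1.45 ± 0.21 (SE, adjusted p = 0.000184), from 0.60 to −0.85. Both genes were higher in aggregation cells of U87 and lower in those of U118, on adjusted p, and without overlap of the libraries in either line. In U118 their negative values shrank to −0.11 and −0.29 with median-ratio scaling, but the difference between the lines was still called, at −1.24 and −1.20. As the separate tables stand, mean ATF4 was 139 TPM in U87 control and 388 TPM in U118 control, but 247 and 245 TPM in the aggregation groups. Mean SLC3A2 was 191 and 535 TPM in the controls and 290 and 295 TPM in the aggregation groups. The opposite signs thus went with unlike control levels and alike aggregation levels.

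HSPA5 differed by −1.21 ± 0.28 (SE, adjusted p = 0.00489) and was −0.96 with median-ratio scaling, which is under the size threshold. SEL1L differed by −1.46 ± 0.31 (SE, adjusted p = 0.00281) and remained called at −1.22 with median-ratio scaling. SLC7A5 differed by −1.21 ± 0.21 (SE, adjusted p = 0.000675), and by −0.92 with that scaling. TRIB3 differed by 2.12 ± 0.37 (SE, adjusted p = 0.000647), since it fell further in U87. All 6 were also called without aggregation replicate 1 of U118, where 10.9% of all genes were called above and 26.6% below. With median-ratio scaling ERN1 (1.12), PHGDH (1.17) and MTHFD2 (1.55) were called above in addition, and 15.7% of all genes were called above and 14.6% below. DDIT4, called higher in each line, had a difference of 0.45 ± 0.45 (SE, adjusted p = 0.458).

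**Figure D4:**
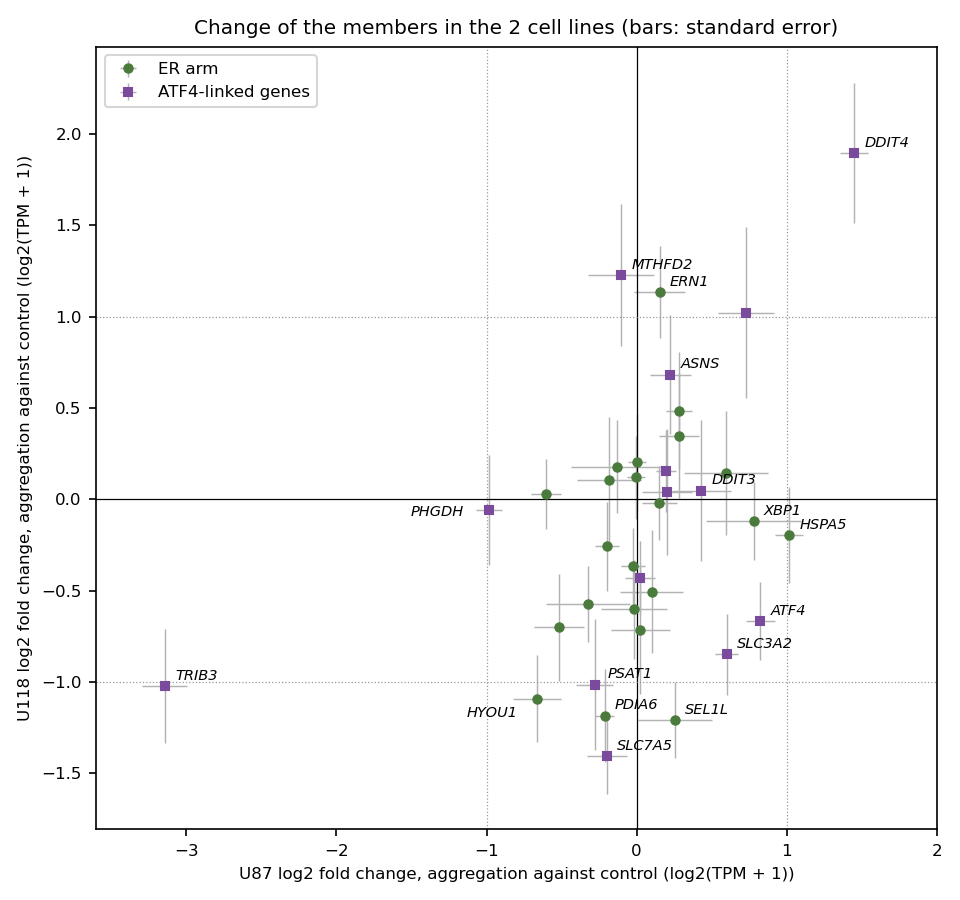
Log2 fold change (aggregation against control, log2(TPM + 1)) of the 36 members tested in both lines, U87 on the horizontal and U118 on the vertical axis, with standard errors as bars and dotted lines at the size threshold of 1. DDIT4 is the only member above 1 on both axes (1.45 and 1.90), and TRIB3 lies far to the left (−3.15 and −1.02). ATF4, SLC3A2, HSPA5 and SEL1L are among the members to the right of zero and below it. HSPA5 turns to 0.36 in U118 with median-ratio scaling.

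Scaling moved the members as a group, and more in U118. In U87, 20 of 36 members had a positive fold change as deposited and 29 did with median-ratio scaling, and in U118 16 and 24 of 37 did. The median over all members moved from 0.02 to 0.28 in U87, and in U118 it turned from −0.12 to 0.43. Relative to the median of all genes it was 0.27 and 0.29 on the respective scales in U87, and 0.40 and 0.46 in U118. Without aggregation replicate 1 the U118 median was −0.31 against −0.756 of all genes, a relative value of 0.45. These medians describe the list and were not tested.

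**Figure D5:**
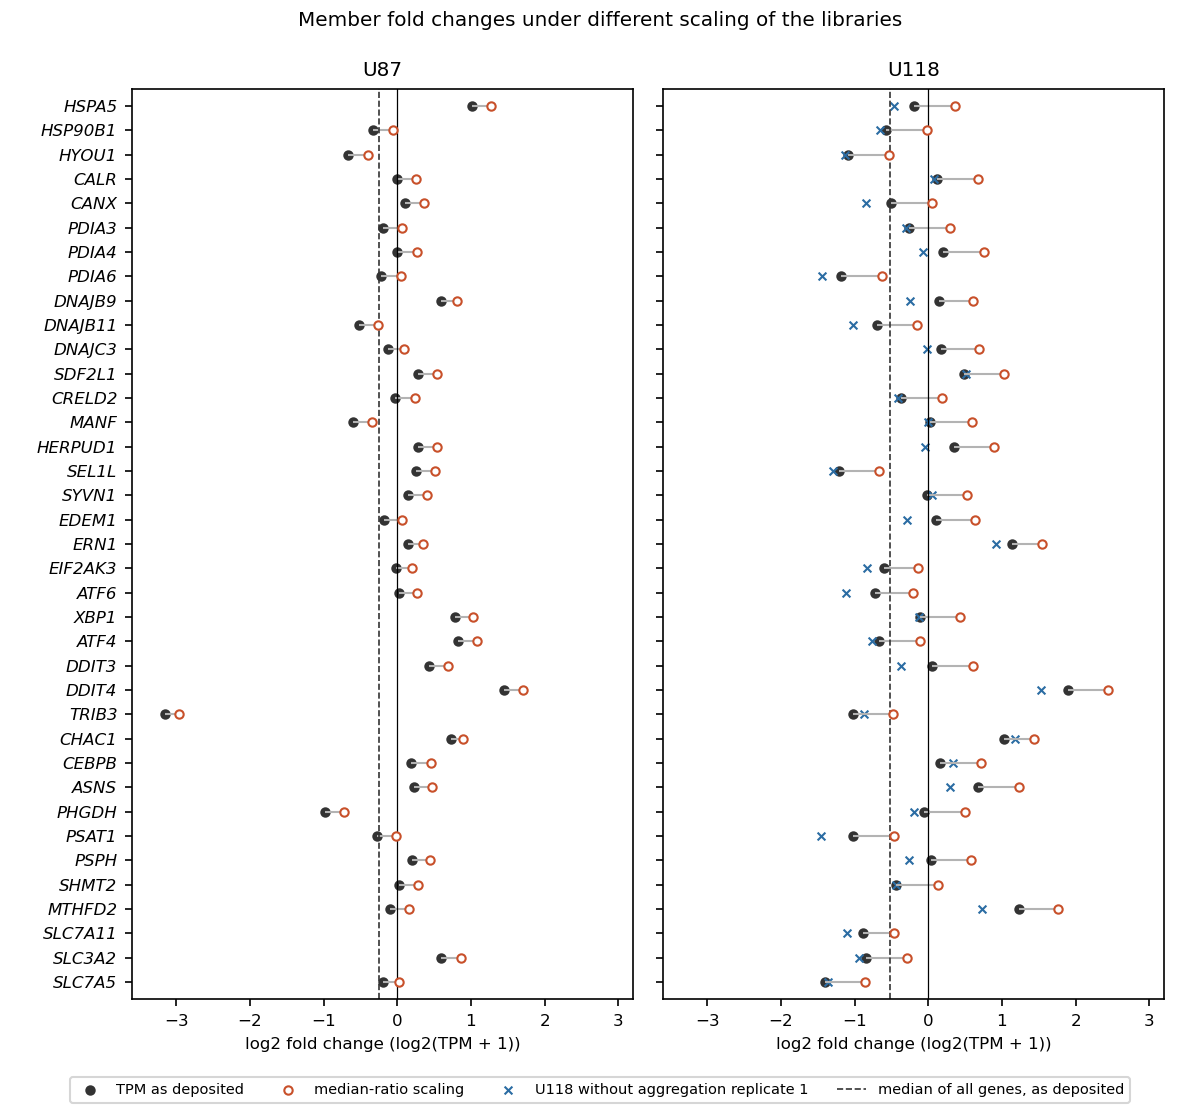
Log2 fold change of every member in U87 (left) and U118 (right), with TPM as deposited (filled), after median-ratio scaling (open) and, in U118, without aggregation replicate 1 (crosses). The dashed line is the median of all genes as deposited (−0.245 and −0.522), and DDIT4 stays to the right and TRIB3 to the left of zero at every setting drawn.

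Since the U118 aggregation libraries resembled U87 in their whole profile, each member's mean log2(TPM + 1) there was set beside the U118 control and U87 control means. For 16 of the 37 members the U118 aggregation mean was nearer to U87 control, against 65.6% of all 16382 genes. These 16 were HSP90B1, HYOU1, CANX, PDIA3, PDIA6, DNAJB11, SDF2L1, SEL1L, EDEM1, ERN1, EIF2AK3, ATF6, TRIB3, PSAT1, MTHFD2 and SLC3A2. The count was also 16 with median-ratio scaling (59.8% of all genes) and with a pseudocount of 0.1 (65.3%). Among members with a mean of at least 10 TPM it was 14 of 31 (63.6%). The levels come from tables deposited separately for each line, so the counts describe them and no test was made. Nearness to U87 aggregation libraries, with which rho was highest, was not counted. A member outside the 16 may therefore still lie near the level of U87 aggregation cells.

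The rest of the pathway was read from 6 further lists with 121 genes, all but 3 of which were tested in each line. In U87, 5 were called higher and 5 lower. This was 4.24% and 4.24% of those tested, beside 3.03% and 7.79% of all genes. In U118, 7 were called higher and 18 lower (5.93% and 15.3%, beside 8.64% and 26.6%). With median-ratio scaling the counts were 7 and 2 in U87 (5.88% and 1.68%, beside 4.79% and 3.92%) and 20 and 5 in U118 (16.9% and 4.24%, beside 15.2% and 12.9%). Without aggregation replicate 1 of U118 they were 8 and 29 (6.78% and 24.6%, beside 5.23% and 38.4%). Other ATF4 targets gave most of the calls in U87, with 3 higher and 3 lower of 22 tested. ATF3, a stress-induced transcription factor, rose from 2.75 ± 0.16 to 18.6 ± 2.64 TPM (SD, n = 3), a log2 fold change of 2.38 (adjusted p = 0.000108). SESN2, a leucine sensor that restrains mTORC1, rose from 14.9 ± 1.09 to 36.1 ± 1.87 TPM (1.22), and CTH, the enzyme that makes cysteine from cystathionine, from 1.47 ± 0.43 to 4.52 ± 0.23 TPM (1.17). The transporters SLC1A4 (−1.39) and SLC7A1 (−1.28) and the transaminase GPT2 (−1.15) fell.

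In U118 the same list had 4 called higher and 3 lower of 23 tested, beside 8.64% and 26.6% of all genes. CTH (1.45), ATF3 (1.40) and VLDLR, a lipoprotein receptor (1.39), rose the most. ATF3 was at 8.76 ± 1.86 TPM in control and 26.6 ± 13.7 TPM in aggregation libraries (SD, n = 3). JDP2, a repressor of the AP-1 and ATF family, fell from 24.2 ± 4.42 to 2.70 ± 0.79 TPM (SD, n = 3), a log2 fold change of −2.78 (adjusted p = 3.91e-05). SLC38A2, a neutral amino acid transporter (−1.42), and STC2, a secreted glycoprotein (−1.11), also fell, and with median-ratio scaling these were −0.86 and −0.56. The comparisons of U87 and U118 use separate control libraries.

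Among other ER folding and translocation genes, none of 33 was called in U87, and 1 was called higher and 5 lower of 33 in U118. The shares of all genes in U118 were 8.64% higher and 26.6% lower. There SPCS2, a signal peptidase subunit, fell from 75.7 ± 9.76 to 22.5 ± 9.05 TPM (−1.76), SSR1, a translocon-associated protein, changed by −1.65, and UGGT1, which marks misfolded glycoproteins, by −1.38. SSR4, a translocon-associated protein as well, rose (1.17). Other degradation genes had no call among 16 in U87 and 2 lower among 15 in U118 (DERL2 −1.35 and HERPUD2 −1.22). With median-ratio scaling the degradation list had 3 higher and 0 lower in U118, and the folding list 5 higher and 2 lower. UGGT1 was then −0.84, under the size threshold. On that scale 15.2% of all genes in U118 were called higher and 12.9% lower.

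Of 21 other genes of the sensors and the eIF2 step, PPP1R15B, a phosphatase subunit that reverses eIF2 phosphorylation, was called lower in U87 (−1.01). In U118, 2 were called higher and 5 lower. Calls of this and the following lists stand beside 3.03% higher and 7.79% lower of all genes in U87, and 8.64% and 26.6% in U118. CREB3L1 (1.51) and CREB3 (1.22), ER-bound transcription factors cleaved like ATF6, rose. MAP3K5, a kinase acting downstream of IRE1 (−2.14), EIF2S1, the subunit of eIF2 that is phosphorylated (−1.55), and IMPACT, an inhibitor of the amino acid sensor kinase (−1.29), fell. Of 12 tRNA synthetase genes known to follow ATF4, TARS1 was called lower in U87 (−1.04) and EPRS1 lower in U118 (−1.10). The cytosolic and mitochondrial heat shock list of 14 genes held 2 calls in U87, HSPA1A (1.14) and HSPA1B (1.20), both higher. In U118 the list held 2, HSPA1A (−1.37) and HSPA8 (−1.18), both lower. HSPA1A and HSPA1B are near-identical copies, so reads may have been divided between them in an unknown way.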

How the data were processed

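The mRNA-seq covered control and aggregation cells of U87 and U118, 3 libraries in each of 4 groups, with groups and replicate numbers taken from the labels. The authors deposited TPM values per gene, 1 table for each line. Per the submitters' processing notes, FastQC 0.11.2, Trimmomatic 0.36, HISAT2 2.0, bedtools 2.26.0 and GRCh38 were used. The quantification tool and annotation are not given in the sources used here. Gene positions are from GENCODE release 29 on GRCh38. TPM keeps no depth, so precision was read from the spread between libraries.

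Values were transformed to log2(TPM + 1), and a limma 3.58.1 fit (R 4.3.3, lmFit followed by eBayes with trend) took genes reaching 1 TPM in 3 or more of the 6 libraries of a line, or of all 12 for the difference between lines. P-values were adjusted by Benjamini-Hochberg over all genes tested. Errors of levels are SDs over 3 libraries, and 3 against 3 in an exact two-sided permutation test of 1 gene cannot go below p = 0.1. The fit was tested on simulated data. Per-library values were given for members called in at least 1 line and for HSPA5, XBP1, ATF4, DDIT3 and ASNS, and from each other list at most 3 rises and 3 falls per line were named. The members and lists were chosen with earlier results of these data known. Neighbouring genes were added after the values were seen.

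The alternatives were pseudocounts of 0.1 and 0.01, no low-value filter, a filter at a mean of 10 TPM, median-ratio scaling, TPM without mitochondrially encoded genes, eBayes without trend, the replicate number as a block, no size threshold, and leaving out each library. Protein sequences were not used here. Figures were drawn with matplotlib 3.10.9 in Python 3.11.15.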

Additional observations from a re-analysis of the deposited data

Results flagged for a closer look

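For 6 members the change in U118 differed from that in U87 by the interaction test (limma, adjusted p under 0.05 and a difference of at least 1 on the log2 scale), 1 above and 5 below of 37, where 12% and 18.5% of all 16382 genes were called so. The values, as the U118 change minus the U87 change, were −1.491 for ATF4, −1.465 for SEL1L, −1.449 for SLC3A2, −1.212 for HSPA5, −1.21 for SLC7A5 and 2.123 for TRIB3. For ATF4 and SLC3A2 the 3 aggregation libraries of U87 lay above all controls and the 3 of U118 below all controls. Their mean levels were alike in U87 and U118 aggregation cells (ATF4 247 and 245 TPM, SLC3A2 290 and 295 TPM). In the U87 and U118 controls they were not (139 and 388 TPM, 191 and 535 TPM). HSPA5 was called in U87 and not in U118, and SEL1L and SLC7A5 were called in U118 and not in U87. TRIB3 was called lower in both lines, with the larger fall in U87. In U118 its groups overlapped, and its call was lost with median-ratio scaling (−0.48) and without aggregation replicate 1 (−0.88). With median-ratio scaling SEL1L and SLC7A5 were not called in U118 either. The differences of HSPA5 (−0.96) and SLC7A5 (−0.92) were then under the size threshold. No group had more than 3 libraries, so no library was tested as lying apart from the others of its group.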

How the results depend on the processing

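Counts of called genes moved with the scaling, the size threshold, the filter, the pseudocount and single libraries. With median-ratio scaling, U87 had 2 ER-arm and 2 ATF4-linked genes higher and 2 of the further pathway genes lower. U118 then had 2 ER-arm genes higher and 0 lower, 0 ATF4-linked genes lower, and 20 of the further genes higher and 5 lower. The lines differed for 4 members above and 3 below. On that scale 4.79% of all genes were higher and 3.92% lower in U87, and 15.2% and 12.9% in U118. Between the lines, 15.7% differed above and 14.6% below. Without mitochondrially encoded genes, 3 further genes were lower in U87, 1 ER-arm and 1 ATF4-linked gene in U118, and 3 members differed above. Pseudocounts of 0.1 and 0.01 each gave 2 ATF4-linked genes higher in U87 and 2 members that differed above. A mean of at least 10 TPM left 0 ATF4-linked genes lower in U87 and 0 ER-arm genes higher in U118, since TRIB3 and ERN1 were then not tested. No filter on low values left 1 ATF4-linked gene higher and 1 lower in U118. With no size threshold, U87 had 2 ER-arm genes higher and 4 lower, 4 ATF4-linked genes higher and 2 lower, and 21 further genes higher and 26 lower. U118 then had 6 ATF4-linked genes lower and 13 further genes higher and 34 lower, and 4 members differed above. By that rule 9.43% of all genes were higher and 29.7% lower in U87, and 12.2% and 39.1% in U118. Leaving out 1 library at a time, ER-arm calls ran from 0 to 1 higher in U87, 0 to 1 higher in U118 and 2 to 5 lower in U118. ATF4-linked calls ran from 1 to 2 lower in U87, 1 to 3 higher in U118 and 1 to 3 lower in U118, further genes from 3 to 7 lower in U87 and 16 to 29 lower in U118, and members that differed from 1 to 4 above and 5 to 9 below. Without U118 aggregation replicate 1 the count below was 9 and that of further genes lower in U118 was 29, without U118 aggregation replicate 2 the count above was 4, without U118 aggregation replicate 3 or control replicate 2 it was 3, without U87 aggregation replicate 3 or any U87 control it was 2, and without U87 aggregation replicate 2 or control replicate 2 the further genes lower in U87 were 3. Over single members, 1021 values kept their direction and side of the threshold, 34 lost the call, 16 gained it and 58 turned sign. Counts given here without a share of all genes show only how the calls moved, not a direction of the members. Where no cause is named, the cause was not tested.

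With the replicate number as a block, 2 members in place of 1 differed above, CHAC1 was called in U118 at 1.02, and the other counts stayed within 1.5 times. Same-numbered libraries correlated at −0.067 to 0.011 in U87 and 0.051 to 0.139 in U118, so the numbers were not taken to pair the samples. In U118 every library correlated best with its own number, a hint from the data and not from the design, and in U87 they did not.

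Signs turned for members that were not called. With median-ratio scaling they turned in U87 for CALR (0.26), PDIA3 (0.064), PDIA6 (0.049), DNAJC3 (0.0904), CRELD2 (0.23), EDEM1 (0.067), EIF2AK3 (0.195), MTHFD2 (0.15) and SLC7A5 (0.0201), and in U118 for HSPA5 (0.36), CANX (0.052), PDIA3 (0.30), CRELD2 (0.18), SYVN1 (0.53), XBP1 (0.43), PHGDH (0.50) and SHMT2 (0.13). Without mitochondrially encoded genes they turned in U87 for CALR (0.13), CRELD2 (0.11), EIF2AK3 (0.098) and MTHFD2 (0.031), and in U118 for HSPA5 (0.0017), SYVN1 (0.17), XBP1 (0.077) and PHGDH (0.14). Leaving out 1 library at a time, the U87 value ran from −0.58 to 0.019 for HSP90B1, −0.044 to 0.032 for CALR, −0.0260 to 0.347 for CANX, −0.024 to 0.024 for PDIA4, −0.31 to 0.21 for DNAJC3, −0.0796 to 0.0067 for CRELD2, −0.18 to 0.21 for EIF2AK3, −0.15 to 0.21 for ATF6, −0.0740 to 0.0938 for SHMT2 and −0.31 to 0.11 for MTHFD2. The U118 value ran from −0.068 to 0.39 for PDIA4, −0.245 to 0.34 for DNAJB9, −0.021 to 0.34 for DNAJC3, −0.0103 to 0.11 for MANF, −0.044 to 0.59 for HERPUD1, −0.10 to 0.054 for SYVN1, −0.29 to 0.31 for EDEM1, −0.24 to 0.016 for XBP1, −0.38 to 0.37 for DDIT3, −0.38 to 0.17 for PHGDH and −0.26 to 0.37 for PSPH. The depth of the libraries is unknown, so its share in these values could not be given.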
